A study of Danio rerio with 11 samples.

Results

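Vertebrate photoreceptors are built by a small set of transcription factors. The homeobox factors crx and otx5 act in rods, cones and the light-sensitive pineal organ, the factors nrl and nr2e3 direct precursors to the rod fate, and tbx2b and thrb direct precursors to cone subtypes. The homeobox factors rx1 and rx2 mark retinal progenitors and later photoreceptors. These 8 genes, with the Entrez identifiers 81881 (crx), 353179 (otx5), 554169 (nrl), 492496 (nr2e3), 30253 (tbx2b), 30607 (thrb), 30472 (rx1) and 30473 (rx2), were taken as a named list of photoreceptor fate regulators, and all 8 were found among the 30243 Entrez genes of the deposited tables.

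They were measured by RNA sequencing of whole zebrafish embryos 48 hours after fertilisation. The samples were 6 libraries from embryos labelled as knockouts of aldh3a1 (aldh3a1_KO), a gene that encodes an aldehyde dehydrogenase, and 5 libraries from wild-type embryos (WT). RNA came from the TG(fli1:EGFP) line, in which blood vessels carry a green reporter. The nature of the aldh3a1 mutation, the number of embryos in a library and which embryos received PTU, a compound that suppresses pigment, are not given in the sources used here. Nothing in the labels says that replicates were separate clutches, so the p-values measure the spread between these 11 libraries.

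In a whole embryo the eye and the pineal organ are a small part of the RNA, and fewer cells of a type cannot be told apart from less RNA per cell. Of the 8 factors, tbx2b is also known from the heart, ear and kidney primordia and thrb from other tissues, so their levels are not those of photoreceptors alone. Whether RNA of nrl and the remaining factors came from photoreceptors alone was not tested. Library totals ran from 9217936 to 17165804 estimated counts in aldh3a1_KO and from 18084798 to 19972027 in WT. The 13 mitochondrially encoded genes took 5.01 to 25.9% of counts in aldh3a1_KO and 4.63 to 5.62% in WT, and libraries aldh3a1_KO 1, 5 and 6 had the highest shares, of 19.8 to 25.9%. The transcript of aldh3a1 itself stood at 3.77 ± 1.20 CPM in aldh3a1_KO and 5.79 ± 1.30 CPM in WT (SD, n = 6 and 5; edgeR adjusted p = 0.0621), with overlapping groups, and whether the mutation alters transcript level is not given in the sources used here. CPM here are counts scaled to library size and corrected by TMM for library composition, and TPM also correct for transcript length and serve to compare one gene with another.

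The 8 factors did not move together. The rod factor nrl was nearly absent from aldh3a1_KO and the homeobox factor rx2 was lower, while tbx2b, a factor of ultraviolet-sensitive cones, was higher. The other 5, among them the rod factor nr2e3 and the red-cone factor thrb, did not pass the threshold, an adjusted p under 0.05 in edgeR's quasi-likelihood test over all 22182 genes. Thus 3 of 8 factors, or 37.5%, were called, where 55.3% of all genes tested were called (26.0% higher and 29.3% lower in aldh3a1_KO). The groups did not overlap for the same 3 factors, as they did not for 37.8% of all genes (20.0% lower in aldh3a1_KO). The median log2 fold change of the 8 was -0.41 and that of all genes tested was -0.12.

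**Figure D1:**
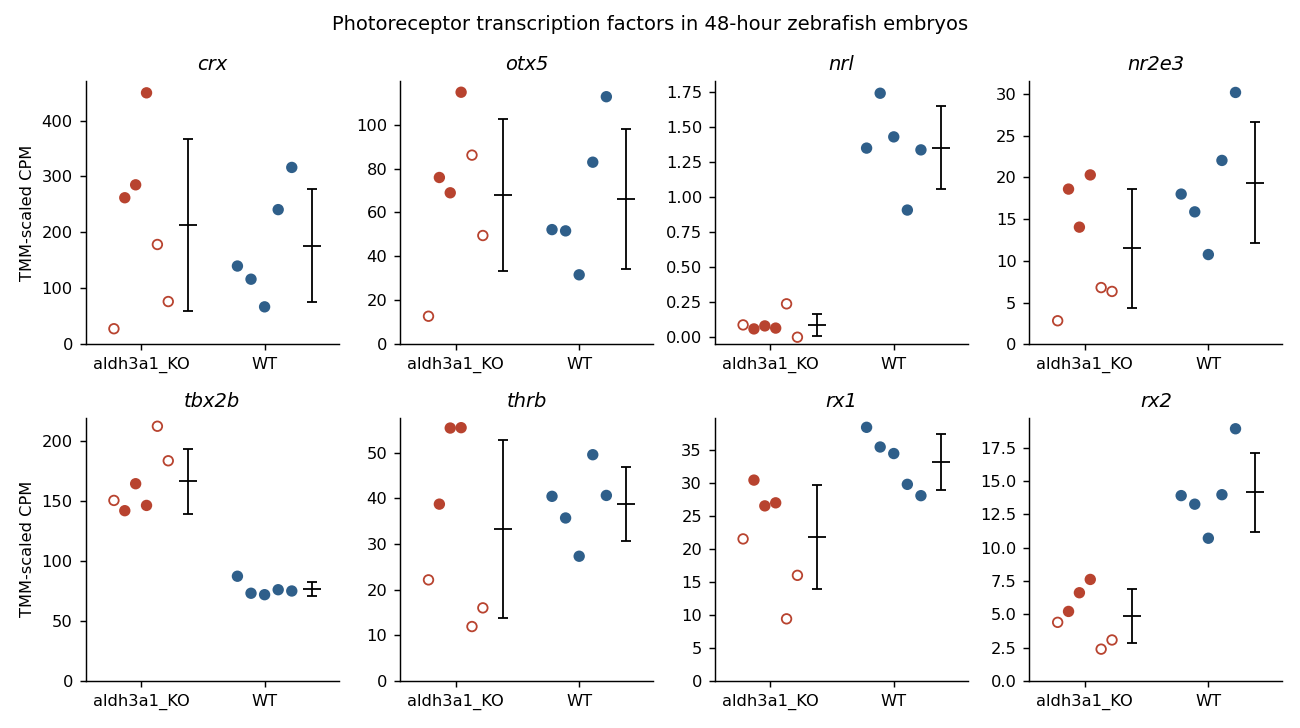
TMM-scaled CPM of each factor (y axis, linear, a different range in each panel) in the 6 aldh3a1_KO libraries (left, red) and the 5 WT libraries (right, blue), in replicate order within a group. Open points are aldh3a1_KO 1, 5 and 6, and black bars are the group mean and SD. For nrl, tbx2b and rx2 no aldh3a1_KO point lies within the WT range, and for crx, nr2e3, thrb, rx1 and rx2 the 3 open points lie below the 3 filled red ones.

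Among the rod factors, nrl encodes a leucine zipper protein that sets rod fate. It had 1, 1, 1, 1, 2 and 0 estimated counts in aldh3a1_KO 1 to 6, against 27, 36, 29, 18 and 28 in WT 1 to 5. Every aldh3a1_KO library was below every WT library, and nrl was a rare transcript in WT too. Scaled, it averaged 0.0885 ± 0.0797 CPM in aldh3a1_KO and 1.35 ± 0.298 CPM in WT (SD, n = 6 and 5). The log2 fold change was -3.93 ± 0.49 (SE), and the edgeR adjusted p was 3.52e-05. Counting error alone, on sums of 6 counts in aldh3a1_KO and 138 in WT, gave a depth-corrected ratio of 0.0540 (95% interval 0.0195 to 0.121, exact binomial). In aldh3a1_KO 2, 3 and 4, whose mitochondrial shares were 5.01 to 12.1%, nrl lay between 0.0592 and 0.0807 CPM, as low as in the other aldh3a1_KO libraries, and the log2 fold change on those 3 libraries was -4.16 (edgeR adjusted p = 0.000198).

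The second rod factor, nr2e3, is a nuclear receptor that in mouse represses cone genes in rods. It stood at 2.81 CPM (lowest), 10.4 CPM (median) and 20.3 CPM (highest) in aldh3a1_KO, against 18.0, 15.9, 10.8, 22.04 and 30.2 CPM in WT 1 to 5. The 3 aldh3a1_KO libraries with high mitochondrial shares, at 2.81 to 6.79 CPM, were below every WT library, and the other 3, at 14.04 to 20.3 CPM, lay inside the WT range. The means were 11.5 ± 7.19 CPM in aldh3a1_KO and 19.4 ± 7.29 CPM in WT (SD, n = 6 and 5). The log2 fold change of -0.74 ± 0.42 (SE; 95% interval -1.65 to 0.16; edgeR adjusted p = 0.149) did not pass the threshold. Without aldh3a1_KO 1, 5 and 6 it was -0.11 (edgeR adjusted p = 0.786). The part of the mitochondrial share in this was not tested.

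Of the cone factors, tbx2b encodes a T-box protein that zebrafish need for ultraviolet-sensitive cones. It stood at 151, 142, 165, 147, 213 and 184 CPM in aldh3a1_KO 1 to 6, against 87.4, 73.2, 71.96, 76.1 and 75.05 CPM in WT 1 to 5. All 6 aldh3a1_KO libraries were above all 5 WT libraries, and the level varied little within a group. The means were 167 ± 27.1 CPM in aldh3a1_KO and 76.7 ± 6.16 CPM in WT (SD, n = 6 and 5), a log2 fold change of 1.12 ± 0.15 (SE, edgeR adjusted p = 5.83e-05). It was 1.02 without aldh3a1_KO 1, 5 and 6 (edgeR adjusted p = 0.000165). Its paralogue tbx2a was at 34.7 CPM in aldh3a1_KO and 41.7 CPM in WT, a log2 fold change of -0.27 ± 0.25 (SE, edgeR adjusted p = 0.387).

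The thyroid hormone receptor gene thrb is known in zebrafish for red-sensitive cones. It stood at 11.9 CPM (lowest), 30.4 CPM (median) and 55.5 CPM (highest) in aldh3a1_KO, against 40.5, 35.7, 27.3, 49.6 and 40.7 CPM in WT 1 to 5. The aldh3a1_KO libraries lay on both sides of WT: 3 were below every WT library and 2 were above. Those below were aldh3a1_KO 1, 5 and 6. Its log2 fold change was -0.22 ± 0.36 (SE; 95% interval -0.99 to 0.56; edgeR adjusted p = 0.629). It was 0.40 without those 3 libraries (edgeR adjusted p = 0.126), 0.05 without aldh3a1_KO 5 and 0.02 without aldh3a1_KO 6, so its sign rests on them.

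Rod and cone factors were then set against each other within each library, as a difference of log2(TPM + 0.1). The added 0.1 exceeds the TPM of nrl in 5 of 6 aldh3a1_KO libraries, so differences that hold nrl depend on it. The mean of nrl and nr2e3 minus the mean of tbx2b and thrb was -5.11 ± 0.39 in aldh3a1_KO and -2.99 ± 0.25 in WT (SD, n = 6 and 5). The libraries ran from -5.62 to -4.51 in aldh3a1_KO and from -3.30 to -2.65 in WT, so the rod side was lower against the cone side in all 6 aldh3a1_KO libraries. The difference between the group means was -2.12, and it was -1.07 with 1 TPM added, -2.83 with 0.01 TPM added and -1.63 on log2(CPM + 0.5). By factor, the group difference in log2(TPM + 0.1) was -2.91 for nrl, -1.18 for nr2e3, 0.92 for tbx2b and -0.77 for thrb. The cone factors thus went opposite ways, and nrl differed most. This combined difference carries no test, because it is a score over chosen genes.

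By pairs, the contrast followed the division into rod and cone factors only in part. The difference nrl minus tbx2b ran from -9.24 to -8.35 in aldh3a1_KO and from -5.43 to -4.49 in WT. The difference nr2e3 minus tbx2b ran from -5.41 to -2.64 in aldh3a1_KO and from -2.45 to -1.07 in WT. Both pairs with tbx2b thus separated the groups. In TPM tbx2b separated them alone, at 49.1 to 83.4 in aldh3a1_KO and 34.3 to 38.2 in WT, and so did nrl. The separation of these pairs is therefore not independent of that of the single genes. With thrb in place of tbx2b the groups overlapped, for nrl minus thrb through aldh3a1_KO 5 alone (-4.29). For that pair 5 of 6 aldh3a1_KO libraries were below every WT library, and for nr2e3 minus thrb 2 of 6 were. The difference nrl minus thrb ran from -7.59 to -4.29 in aldh3a1_KO and from -5.04 to -3.63 in WT, and nr2e3 minus thrb from -2.88 to -0.67 in aldh3a1_KO and from -1.36 to -0.41 in WT. The cone factors also parted from each other: thrb minus tbx2b ran from -4.05 to -1.32 in aldh3a1_KO and from -1.09 to -0.38 in WT, with no overlap.

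**Figure D2:**
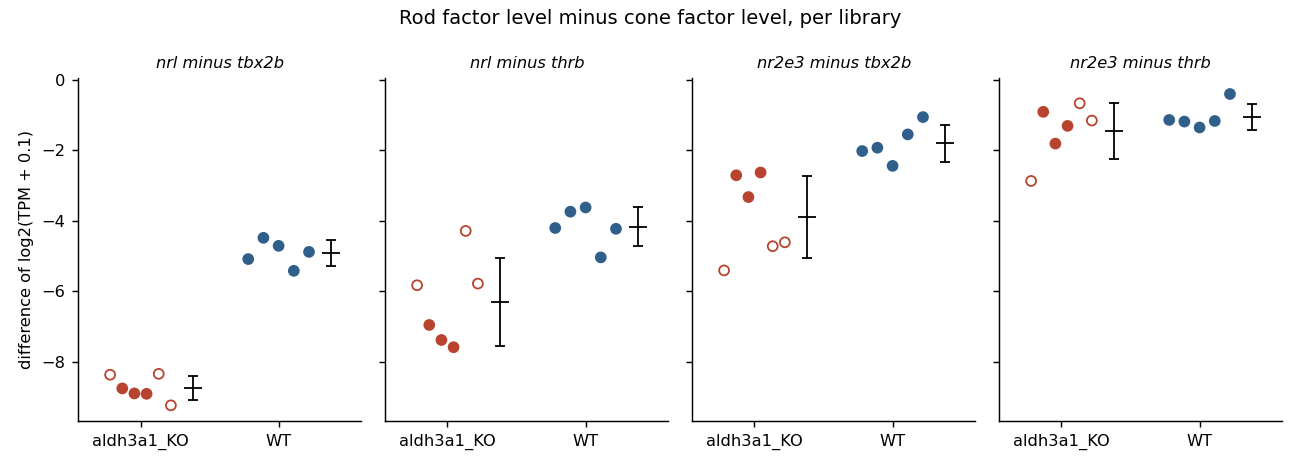
Difference of log2(TPM + 0.1) between a rod factor and a cone factor (y axis) in each library of aldh3a1_KO (left, red; open points are aldh3a1_KO 1, 5 and 6) and WT (right, blue), with the group mean and SD in black. Both panels with tbx2b show groups that do not overlap, and both panels with thrb show groups that do.

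The factors shared by rods and cones varied more between libraries than between genotypes. The gene crx encodes the cone-rod homeobox protein, an activator of many photoreceptor genes. It stood at 27.7, 262, 285, 450, 178 and 76.3 CPM in aldh3a1_KO 1 to 6, against 140, 116, 66.8, 241 and 316 CPM in WT 1 to 5. The highest library was 16.2 times the lowest in aldh3a1_KO and 4.73 times in WT, and the groups overlapped. The log2 fold change was 0.28 ± 0.56 (SE; 95% interval -0.93 to 1.49; edgeR adjusted p = 0.693), and -0.07 without aldh3a1_KO 4. On log2(TPM + 0.1), where the median gene stood at -0.36, it was -0.22.

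Its relative otx5, which in zebrafish controls rhythmic genes of the pineal organ, stood at 12.7, 75.9, 68.97, 115, 86.1 and 49.5 CPM in aldh3a1_KO 1 to 6, against 52.2, 51.6, 31.6, 82.9 and 113 CPM in WT 1 to 5. Its extremes in aldh3a1_KO were libraries 4 (highest) and 1 (lowest), as for crx. Its log2 fold change was 0.04 ± 0.43 (SE; 95% interval -0.89 to 0.96; edgeR adjusted p = 0.945), with a sign that turned in 7 of 22 alternatives. The difference otx5 minus crx in log2(TPM + 0.1) was -0.92 ± 0.58 in aldh3a1_KO and -0.82 ± 0.20 in WT (SD, n = 6 and 5).

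The retinal homeobox genes rx1 and rx2 were both lower on average, and only rx2 passed. For rx2 the levels were 4.39, 5.21, 6.62, 7.61, 2.38 and 3.07 CPM in aldh3a1_KO 1 to 6, against 13.9, 13.3, 10.7, 13.97 and 18.9 CPM in WT 1 to 5. No library of one group reached the other. The means were 4.88 ± 2.02 CPM in aldh3a1_KO and 14.2 ± 2.98 CPM in WT (SD, n = 6 and 5), a log2 fold change of -1.52 ± 0.28 (SE, edgeR adjusted p = 0.000456). Without aldh3a1_KO 1, 5 and 6 it was -1.09 (edgeR adjusted p = 0.00306).

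For rx1 the levels were 21.5, 30.4, 26.5, 27.0, 9.41 and 16.01 CPM in aldh3a1_KO 1 to 6, against 38.5, 35.5, 34.5, 29.8 and 28.1 CPM in WT 1 to 5. In aldh3a1_KO, 5 of 6 libraries were below every WT library and replicate 2 was inside the WT range. The log2 fold change of -0.60 ± 0.25 (SE; 95% interval -1.14 to -0.07) had an edgeR adjusted p of 0.0536. Without aldh3a1_KO 1, 5 and 6 it was -0.21 (edgeR adjusted p = 0.230). The difference rx2 minus rx1 in log2(TPM + 0.1) ran from -1.47 to -0.77 in aldh3a1_KO and from -0.62 to 0.48 in WT, so rx2 was lower against rx1 in all 6 aldh3a1_KO libraries. Another gene of the family, rx3, which acts earlier in the eye field, was at 7.39 CPM in aldh3a1_KO and 8.51 CPM in WT (log2 fold change -0.20 ± 0.47, SE; edgeR adjusted p = 0.731).

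**Figure D3:**
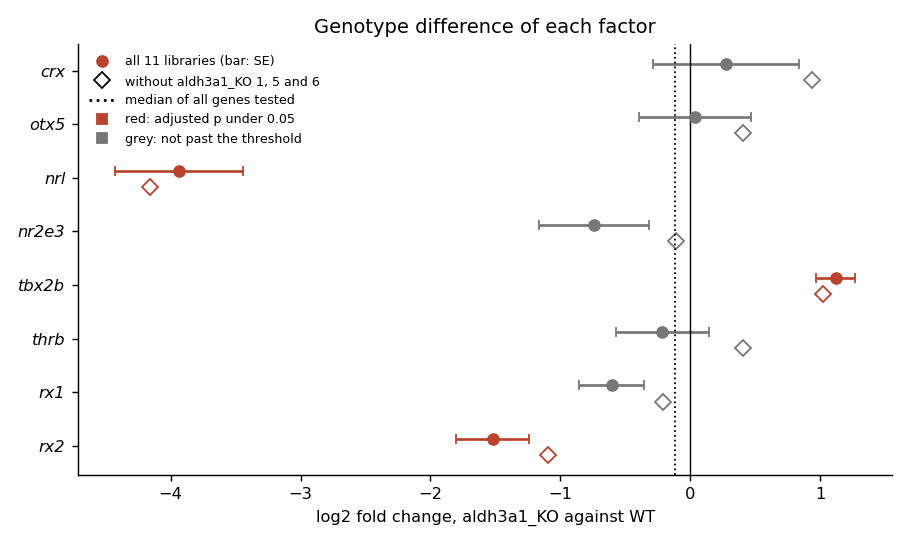
Log2 fold change of each factor, aldh3a1_KO against WT (x axis), with all 11 libraries (circles, bars are the SE) and without aldh3a1_KO 1, 5 and 6 (open diamonds). Red marks an adjusted p under 0.05, grey a value not past it, and the dotted line the median of all genes tested (-0.12). The values of nrl, tbx2b and rx2 stay red in both. Those of crx, otx5, nr2e3, thrb, rx1 and rx2 lie further right without the 3 libraries.

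Compared per length, the order of the factors by mean TPM was led by crx in both groups, at 96.7 ± 81.1 TPM in aldh3a1_KO and 81.8 ± 45.7 TPM in WT (SD, n = 6 and 5). In aldh3a1_KO it was followed by tbx2b (68.3), otx5 (42.2), thrb (15.7), rx1 (7.48), nr2e3 (5.94), rx2 (3.54) and nrl (0.0617 TPM). In WT it was followed by otx5 (44.1), tbx2b (35.4), thrb (21.2), rx1 (12.7), rx2 (11.2), nr2e3 (10.5) and nrl (1.10 TPM). Neighbours in these orders were often not separable. In aldh3a1_KO crx was above tbx2b in 3 of 6 libraries and rx1 above nr2e3 in 4 of 6. In WT otx5 was above tbx2b, and rx2 above nr2e3, in 3 of 5 libraries. The last place of nrl held in all 11 libraries, and in WT 41.6% of all listed genes had a lower mean TPM than nrl.

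The levels of crx, otx5 and nr2e3 ordered the WT libraries identically, with WT 5 highest, then WT 4, 1, 2 and 3, and rx2 gave this order too. In aldh3a1_KO library 4 was highest and library 1 lowest for crx, otx5 and nr2e3. Likeness of profiles was measured as the root-mean-square difference of log2(CPM + 0.5) over the 11 libraries after centring each gene on its own mean, among 16993 other named genes. The gene closest to crx was foxq2, a forkhead factor known in zebrafish for blue-sensitive cones, with a difference of 0.17 where crx itself had a spread of 1.13. The next was ndrg1b at 0.39, and otx5 was the third at 0.41.

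The genes closest to otx5 were hunk (0.26) and samd7 (0.27), which in mouse encodes a repressor acting in rods. Closest to nr2e3 were prdm1a (0.23), whose mouse counterpart separates photoreceptors from bipolar cells, and tmem74 (0.29). In CPM, foxq2 stood at 0.439, 7.46, 6.86, 11.3, 4.41 and 2.05 in aldh3a1_KO 1 to 6, against 2.70, 2.27, 1.48, 6.61 and 8.84 in WT 1 to 5, the order of crx in WT. None of foxq2, samd7 and prdm1a passed the genotype test (log2 fold changes 0.32, -0.42 and -0.51; edgeR adjusted p = 0.681, 0.498 and 0.316).

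The other members had other neighbours. Closest to tbx2b were dcaf8 (0.09) and enox2 (0.12), to thrb kcnn1a (0.23) and dynlt1b (0.24), to rx1 ppp5c (0.11) and gas1b (0.12), and to rx2 kctd5b (0.22) and lrata (0.23), a gene of vitamin A storage in the pigment epithelium. Closest to nrl were adam22 (0.18) and gnal2 (0.19), at a level where the added 0.5 CPM exceeds nrl itself in aldh3a1_KO. These are descriptions over 11 libraries that share depth and scaling, with no test.

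**Figure D4:**
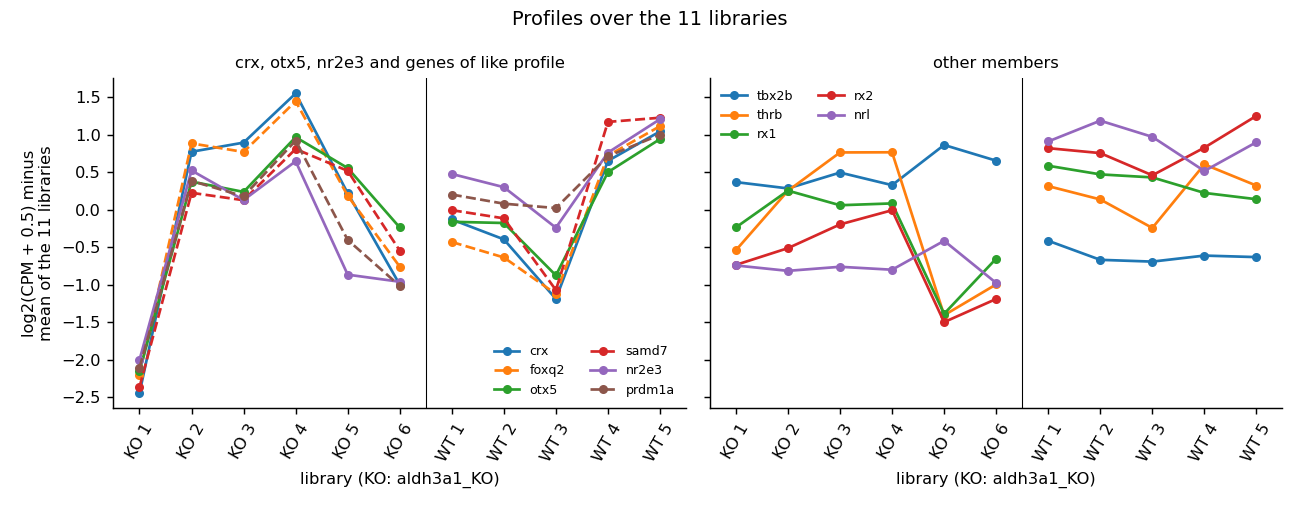
Log2(CPM + 0.5) minus the gene's mean over the 11 libraries (y axis) in aldh3a1_KO 1 to 6 and WT 1 to 5 (x axis), for crx, otx5 and nr2e3 (solid) with foxq2, samd7 and prdm1a (dashed) on the left and the other 5 members on the right. On the left all 6 lines have their low point at aldh3a1_KO 1, whereas tbx2b and nrl stand at separate levels in the groups.

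Other regulators of retina and photoreceptors were read from a list of 64 genes, all of which were tested. Of these, 7 were higher, 9 were lower and 48 did not pass, so 25.0% were called against 55.3% of all genes, with a median log2 fold change of 0.05. The smallest adjusted p values belonged to prdm1b, a paralogue of prdm1a (6.57 ± 2.004 CPM in aldh3a1_KO and 38.6 ± 5.58 CPM in WT, SD, n = 6 and 5; log2 fold change -2.56 ± 0.22, SE; edgeR adjusted p = 6.55e-06), to mef2d, in mouse an activator of photoreceptor genes (1.71 ± 0.410 CPM in aldh3a1_KO and 14.6 ± 5.598 CPM in WT; -3.08), and to rorb, a nuclear receptor that in mouse acts upstream of Nrl (2.46 ± 1.57 CPM in aldh3a1_KO and 28.1 ± 3.57 CPM in WT; -3.47 ± 0.36, SE; edgeR adjusted p = 1.54e-05). Among the other genes called, listed here after their values were seen, were meis1b, gdf6a, rxrbb, lhx3 and pax6b, which fell, and onecut1, onecut2, pax6a, rxrab, otx1, otx2a and sox11a, which rose. The number that rose depended on libraries and scaling: it was 24 without aldh3a1_KO 1, 5 and 6, 17 without aldh3a1_KO 1, 14 without aldh3a1_KO 5, and 4 on log2(TPM + 1). The photoreceptor regulators six7 and neurod1 stood at log2 fold changes of -0.05 and 0.19 (edgeR adjusted p = 0.922 and 0.679).

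Genes of the rod phototransduction machinery and rod differentiation did not move in one direction. Of 17 rod genes tested among 23 in the tables, 10 were higher, 3 were lower and 4 did not pass (76.5% called against 55.3% of all genes, median log2 fold change 0.47). Rod genes that were not tested are outside these counts and, except for rgs9a, had a lower mean CPM in aldh3a1_KO. The list also holds the G protein genes gnb1a and gnb1b and the factor gene sox5, which neurons express as well, and all 3 were among those that rose. The others that rose averaged from 0.491 TPM (cngb1a) to 26.7 TPM (saga) in aldh3a1_KO, where rho averaged 0.412 TPM. Whether their RNA came from rods was not tested. The 3 that fell were rho, gnat1 and rcvrna, a count of 1 without WT 4, WT 5, aldh3a1_KO 1 or aldh3a1_KO 6 and of 0 without aldh3a1_KO 1, 5 and 6, where the log2 fold changes of rho (-3.75) and gnat1 (-1.24) stayed near those from all 11 libraries (-4.27 and -1.27). The rhodopsin gene rho stood at 0.0879, 0.770, 0.403, 1.30, 0.834 and 0 CPM in aldh3a1_KO 1 to 6, against 2.15, 0.726, 1.53, 24.9 and 27.9 CPM in WT 1 to 5. WT 4 and 5 thus held most of the WT signal, and WT 2 lay within the aldh3a1_KO range. It differed by -4.27 ± 0.995 on the log2 scale (SE, edgeR adjusted p = 0.00255), and without aldh3a1_KO 1, 5 and 6 it was -3.75 (edgeR adjusted p = 0.0647) on 3 aldh3a1_KO libraries. Within WT, nrl did not follow rho from library to library. WT 2 had the most nrl counts (36) and the fewest rho counts (15). WT 4 had the fewest nrl counts (18) and 494 rho counts. Whether the RNA of nrl came from rods was not tested.

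The rod transducin gene gnat1 was at 1.62 ± 0.585 CPM in aldh3a1_KO and 3.92 ± 2.66 CPM in WT (SD, n = 6 and 5; log2 fold change -1.27, edgeR adjusted p = 0.0200), a call lost in 6 of 22 alternatives, with -0.90 without WT 5. In contrast, saga, which encodes an arrestin, was at 98.7 ± 36.6 CPM in aldh3a1_KO and 21.4 ± 4.87 CPM in WT, with a log2 fold change of 2.20 (edgeR adjusted p = 3.74e-05). Also higher were grk1b, a rhodopsin kinase gene (4.52, edgeR adjusted p = 6.90e-05), and cngb1a, a subunit of the rod cation channel (2.997, edgeR adjusted p = 0.000327). They had 287 and 167 counts over aldh3a1_KO and 18 and 29 over WT. The rod list counts grk1b as a rod gene, and whether its RNA came from rods or cones was not tested.

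Of 16 cone genes tested among 29 in the tables, 6 were higher, 1 was lower and 9 did not pass (43.8% called against 55.3% of all genes, median log2 fold change 0.43). The lower one was si:busm1-57f23.1 (3.92 ± 0.612 CPM in aldh3a1_KO and 10.9 ± 1.25 CPM in WT, SD, n = 6 and 5). Cone genes that were not tested are outside these counts, and most of them had a lower mean CPM in aldh3a1_KO. Among them were gnb3a (0.285 ± 0.367 CPM in aldh3a1_KO and 10.3 ± 14.8 CPM in WT) and arr3a (0.0708 ± 0.114 and 0.704 ± 0.659 CPM). Those with a higher mean were guca1c, guca1d and slc24a2. The number lower was 2 without WT 2, 3 without WT 3, and 4 with DESeq2's Wald test. Among those that rose were the cyclase activator gene guca1ab.1 (12.3 ± 6.60 CPM in aldh3a1_KO and 0.909 ± 0.476 CPM in WT, log2 fold change 3.74, edgeR adjusted p = 3.81e-05) and the green opsin gene opn1mw4, with 228 counts over aldh3a1_KO and 7 over WT. The ultraviolet opsin gene opn1sw1, of the cone type that needs tbx2b, had 9 counts over aldh3a1_KO and 58 over WT, too few for the test. WT 4 and 5 held 25 and 26 of the WT counts. WT 1, 2 and 3 had 4, 0 and 3, within the aldh3a1_KO range of 0 to 4. The red opsin gene opn1lw2, of the cone type that needs thrb, was at 0.540 ± 0.413 CPM in aldh3a1_KO and 0.792 ± 0.461 CPM in WT (SD, n = 6 and 5; edgeR adjusted p = 0.478). The cone transducin gene gnat2 was at 2.21 ± 0.560 CPM in aldh3a1_KO and 2.27 ± 0.787 CPM in WT (edgeR adjusted p = 0.922). The levels of opn1sw1 and opn1lw2 thus rest on few counts.

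Of 19 tested genes shared by rods and cones, 5 were higher and 2 lower (36.8% called against 55.3% of all genes, median log2 fold change 0.02). The number higher was 3 without WT 1, WT 2, WT 3 or the 3 aldh3a1_KO libraries with high mitochondrial shares. The 2 that fell were crb2a (-2.49), a cell polarity gene, and rcvrnb (-2.46), and the largest increase was in tulp1b (24.7 ± 18.5 CPM in aldh3a1_KO and 0.973 ± 0.311 CPM in WT, SD, n = 6 and 5). Of 8 tested pineal genes, 0 were higher and 1, the homeobox gene bsx (-2.43, edgeR adjusted p = 0.000345), was lower in edgeR. The share called was 12.5%, against the same 55.3% of all genes, and the median log2 fold change was 0.10. At an unadjusted p under 0.05 edgeR had 1 higher gene, the pineal opsin gene exorh, at 15.9 ± 1.28 CPM in aldh3a1_KO and 10.6 ± 4.71 CPM in WT (log2 fold change 0.59, edgeR adjusted p = 0.0548). DESeq2's Wald test called 1 higher gene, limma on log2(TPM + 1) called 0, and exorh passed in edgeR without WT 4 (0.86), aldh3a1_KO 2 (0.69) or aldh3a1_KO 5 (0.71). With all 11 libraries exorh passed in edgeR with DESeq2 size factors (adjusted p = 0.0308) or upper-quartile factors (adjusted p = 0.0332). It also passed there with a minimum of 1 CPM in 5 libraries (adjusted p = 0.0481), and in edgeR with replicate number as a block (adjusted p = 0.0377). Without aldh3a1_KO 1 there was 1 higher pineal gene, and without aldh3a1_KO 4 there were 2 lower ones. Summed pineal transcripts were 19.02 to 45.4 TPM in aldh3a1_KO and 22.5 to 44.8 TPM in WT.

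**Figure D5:**
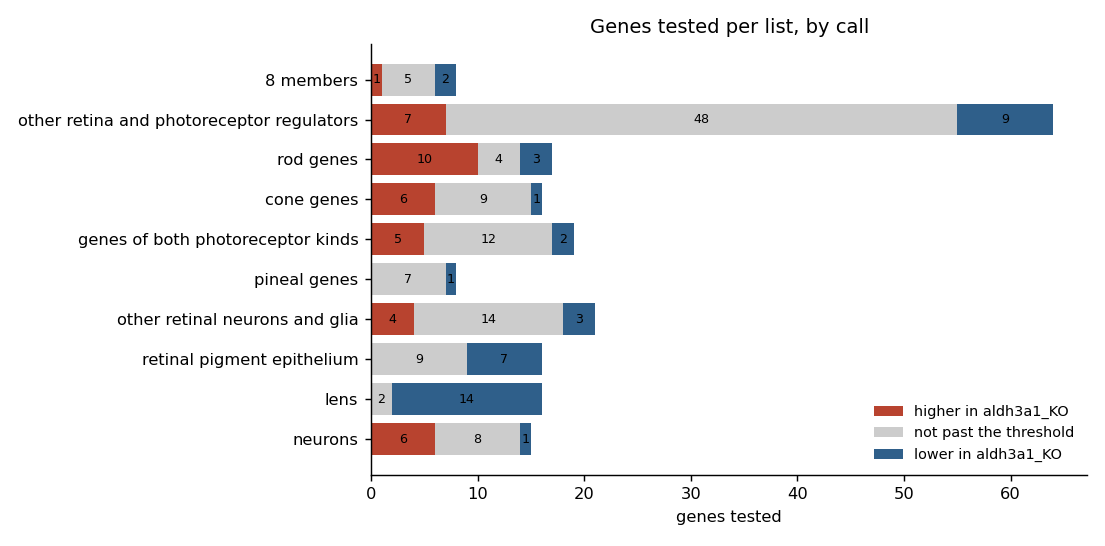
Number of tested genes in each list (x axis) that were higher in aldh3a1_KO (red), not past the threshold (grey) or lower (blue). The 8 factors and the 64 other regulators are mostly grey, the 17 rod genes mostly red and the 16 lens genes mostly blue.

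Marker lists of other tissues were read beside these genes, where 55.3% of all genes were called; the share called was 87.5% for lens, 43.8% for pigment epithelium, 46.7% for neurons and 33.3% for other retinal neurons and glia. Of 16 lens genes tested, 14 were lower and 0 higher in edgeR with TMM. The number higher was 1 at an unadjusted p under 0.05, 1 with DESeq2's Wald test and 0 with limma. In edgeR it was 1 with DESeq2 size factors or upper-quartile factors. It was also 1 without aldh3a1_KO 1, 2, 3 or 5, each left out alone, and without aldh3a1_KO 1, 5 and 6 together. The summed lens level was 143 to 1002 TPM in aldh3a1_KO and 3999.5 to 10519 TPM in WT, with no overlap. Of 16 genes of the retinal pigment epithelium, 7 were lower (11 with limma on log2(TPM + 1)) and 0 higher in edgeR with TMM. The number higher was 1 at an unadjusted p under 0.05, 1 with DESeq2's Wald test and 0 with limma. In edgeR it was 1 with DESeq2 size factors or upper-quartile factors, and 2 with replicate number as a block. It was 2 without WT 5, 1 without aldh3a1_KO 1 or 6, and 1 without aldh3a1_KO 1, 5 and 6 together. The summed pigment epithelium level was 58.7 to 176 TPM in aldh3a1_KO and 324 to 429 TPM in WT. The pigment epithelium genes that fell were mitfa, tyr, dct, pmela, lrata, lratb.1 and rgra. Neither rpe65a nor rpe65b passed (edgeR adjusted p = 0.149 and 0.172). In WT, dct and pmela alone averaged 143 and 107 TPM. Whether RNA of mitfa, tyr, dct and pmela came from the eye alone was not tested. Of 15 neuron genes, 6 were higher and 1 lower, at 1280 to 3079 TPM summed in aldh3a1_KO and 969 to 1420 TPM in WT. Of 21 genes of other retinal neurons and glia, 4 were higher (8 without aldh3a1_KO 1, 7 without aldh3a1_KO 2) and 3 lower (5 without aldh3a1_KO 4), at 305 to 1042 TPM summed in aldh3a1_KO and 595 to 842 TPM in WT. Whether RNA of the genes on this list came from the retina alone was not tested. Counts above 0 in all 11 libraries were found for 16 of 18 lens genes, 16 of 17 pigment epithelium genes, 15 of 15 neuron genes and 21 of 22 genes of other retinal neurons and glia. The part of these tissues in the levels of the 8 factors was not tested.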

How the data were processed

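Per the submitters' processing notes, reads were trimmed with Trim Galore 0.6.4, quantified with kallisto (version given as 0.4.6) and the build was danRer11. The authors deposited estimated counts per Entrez gene, with no normalization, and TPM per gene, scaled by them for length and depth. Of 30243 identifiers, 25812 matched a symbol in a RefSeq table of the assembly GRCz12tu, which was used for names only. Of the members, otx5, nrl, rx1 and rx2 had whole counts (within 1e-06) in all 11 libraries, whereas crx, nr2e3, tbx2b and thrb had fractional counts in some or all libraries, and whether their reads are shared with other genes was not tested.

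Estimated counts were rounded, filtered with filterByExpr, scaled by TMM and tested, aldh3a1_KO against WT, with edgeR 4.0.16 (robust quasi-likelihood F test, two-sided, Benjamini-Hochberg) in R 4.3.3. The SE comes from the F statistic and intervals from its t distribution. Alternatives used DESeq2 1.42.0 and limma 3.58.1. On simulated data of 21889 genes the procedure recovered 30 of 100 changes of 2-fold and 86 of 99 changes of 4-fold, with 3 false calls. No other simulated gene was changed, whereas 55.3% of the real genes were called. The adjustment was therefore stricter in the simulation, and its recovery and false calls are not those of the real test. A gene that did not pass can still differ by 2-fold, as the 95% intervals of nr2e3 (-1.65 to 0.16) and crx (-0.93 to 1.49) include such a difference. Plots were made in Python 3.11.15.

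The members, lists, alternatives and tests were chosen with earlier results of these data known. Named genes were the 8 members, up to 3 genes a list, those lowest in adjusted p, and the 2 genes closest in profile to each member. Also named were aldh3a1, rho, gnat1, gnat2, opn1sw1 and opn1lw2. After their values were seen, tbx2a, rx3, six7, neurod1, gnb3a, arr3a, guca1c, guca1d, slc24a2, rgs9a, rpe65a and rpe65b were added. The remaining pigment epithelium genes that fell were added in the same way. One gene of the regulator list is not reported by name here.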

Additional observations from a re-analysis of the deposited data

Results flagged for a closer look

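In WT 1 the level of tbx2b, 87.4 CPM, stood apart from the other 4 WT libraries, at 71.96 to 76.1 CPM (Dixon's ratio 0.71 on log2(CPM + 0.5)). In WT 5 the difference nr2e3 minus thrb, -0.41 in log2(TPM + 0.1), stood apart from the other WT libraries (Dixon's ratio 0.77). These were 2 of 54 groups looked at, and chance gives about 1 in 20.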

How the results depend on the processing

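The calls of nrl, tbx2b and rx2 and their directions held in every alternative that tested them (21 for nrl, 22 for tbx2b and rx2), with log2 fold changes of -4.25 to -0.97 for nrl, 0.91 to 1.27 for tbx2b and -1.82 to -1.09 for rx2. With a minimum of 1 CPM in 5 libraries nrl was not tested, which left 1 lower member. For nrl the sum of 6 counts over aldh3a1_KO limits how far the size of the difference is known. Over all genes, 11034 to 14236 were called, and the share higher among those called was 47.0% with TMM, 54.0% with DESeq2's Wald test and 35.5% on log2(TPM + 1).

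For nr2e3 the value stayed between -1.18 and -0.11 and did not pass in any of 22 alternatives. The values that follow changed sign, side or size, and the cause was not tested. On limma's log2(TPM + 1), with or without a filter, crx was -0.20, otx5 -0.29, foxq2 -0.0015 and rx1 -0.81 (adjusted p = 0.0242 and 0.0369), and on log2(TPM + 0.1) they were -0.22, -0.32, -0.15 and -0.91 (adjusted p = 0.0279). Without aldh3a1_KO 1, 5 and 6, thrb was 0.40 and prdm1a 0.10. For gnat2 the value was 0.058 when scaled by DESeq2 size factors, 0.077 by the upper quartile, 0.040 in the Wald test, 0.0019 without a filter and 0.18 with the replicate block. Leaving out each library in turn gave -0.071 to 0.61 for crx, -0.16 to 0.36 for otx5, -0.41 to 0.053 for thrb, -0.67 to -0.35 for rx1, -0.17 to 0.15 for gnat2 and -0.021 to 0.73 for foxq2. In that series rx1 passed without aldh3a1_KO 2 (adjusted p = 0.0418) or 4 (adjusted p = 0.0488). The rod minus cone difference between groups, -2.12, was -1.07 on log2(TPM + 1), -2.83 on log2(TPM + 0.01) and -1.63 on log2(CPM + 0.5).

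Libraries with the same replicate number did not deviate together throughout (correlations of 0.0065 to 0.15 over 5 pairs), so the numbers were not taken as pairs. With the replicate block, which leaves out aldh3a1_KO 6, 11125 genes were called, and nrl was -3.60, tbx2b 1.18 and rx2 -1.36.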
